A study of Mus musculus with 8 samples.

Results

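The Ly6 genes Ly6a, Ly6c1, Ly6c2, Ly6d, Ly6e and Ly6k were followed in naive CD8 T cells, the precursors of cytotoxic T cells that have not met antigen. They were taken by gene symbol from the deposited table, in which all 6 were found among 22609 genes. The study measured messenger RNA by RNA sequencing in 4 Brca1 heterozygous (Het) and 4 Brca1 wild type (WT) libraries of C57BL/6 mice aged 3 months. Cells came straight from spleen, were not stimulated, and carried no other allele or agent that the labels name. The labels do not say how the Brca1 allele was made, nor whether the libraries come from different mice. The p-values therefore rest on the spread between libraries, which may be technical. Libraries are called by the number in their title: Het 31, 53, 56 and 139, and WT 45, 54, 57 and 65.

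Ly6 proteins are small, cysteine-rich domains held on the outer face of the cell membrane by a glycosylphosphatidylinositol (GPI) lipid anchor, and in mice most of them are read from neighbouring genes. Ly6a encodes Sca-1, a marker of blood stem cells that interferon and activation raise on T cells. Ly6c1 and Ly6c2 encode the Ly-6C antigen, known from memory CD8 T cells, monocytes and plasma cells. Ly6e encodes TSA-1, also called Sca-2, a thymocyte antigen that interferon can induce. Ly6d encodes ThB, found on B lineage cells and in stratified epithelium. Ly6k encodes a protein known from male germ cells.

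In the RefSeq annotation of GRCm38.p6 the 6 genes lie on chromosome 15 in the order Ly6d, Ly6k, Ly6e, Ly6a, Ly6c1, Ly6c2. RefSeq lists 22 genes between the outer ends of Ly6d and Ly6c2, of which 13 are protein coding and 12 could be matched to the deposited table. Of those 12, the 6 studied genes passed the filter on low values. The other 6 (Gml, Hemt1, Cyp11b1, Cyp11b2, 2010109I03Rik and Ly6i) were at or near 0. Their means were at most 7.28 in either genotype.

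Ly6c1 and Ly6c2 are near copies, and their start regions are shown because the balance between these genes is described further on. For each gene the first-numbered transcript of GENCODE M21 was used. Those of Ly6c1 and Ly6c2 were identical at 97.6% of 822 aligned bases, while those of Ly6a and Ly6c1 were identical at 84.6% of 803. The 250 bases before the first RefSeq start of each gene aligned over 216 bases, with 75.9% identity. Both are given 5′ to 3′ on the minus strand of GRCm38.p6, with capitals for the longest run that both share, 20 bases long.
Ly6c1, chr15:75048838-75049087: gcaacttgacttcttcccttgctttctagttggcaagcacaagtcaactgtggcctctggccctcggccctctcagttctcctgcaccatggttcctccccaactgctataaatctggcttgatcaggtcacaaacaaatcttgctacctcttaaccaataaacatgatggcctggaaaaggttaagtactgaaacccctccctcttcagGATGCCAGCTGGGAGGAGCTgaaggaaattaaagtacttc
Ly6c2, chr15:75111972-75112221: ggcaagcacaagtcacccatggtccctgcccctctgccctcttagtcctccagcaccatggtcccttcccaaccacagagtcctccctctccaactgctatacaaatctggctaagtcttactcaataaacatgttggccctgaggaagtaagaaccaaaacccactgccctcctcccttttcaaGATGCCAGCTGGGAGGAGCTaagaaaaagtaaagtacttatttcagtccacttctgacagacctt
TTCNNNGAA, the core of the gamma-activated site through which interferon gamma acts, was in neither window on either strand, and 7.18% of 27025 mouse promoter windows of the same length held it. TATAAA, the TATA box, was found once before Ly6c1, 143 bases from the start, and not before Ly6c2, where 3504 of the 27025 windows held it on either strand. These searches say only whether the letters are in these windows.

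The shared sequence bears on the values. Of the 50-base stretches of the Ly6c1 transcript, 36.7% also occur in a transcript of another gene, and 31.7% occur in Ly6c2. Of those of Ly6c2, 33.0% occur elsewhere, and of those of Ly6a 8.05%, in Ly6i, I830127L07Rik, Ly6c1 and Ly6c2. None of the 50-base stretches of Ly6d, Ly6e or Ly6k occur in another gene. How reads that fit several genes were counted is not given in the sources used here, so the levels of Ly6c1 and Ly6c2 are uncertain. Exons of Ly6k overlap those of Gm17189 on the opposite strand, and whether counting used the strand is not given.

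The deposited values had been brought to a shared distribution, so every library has nearly the same total and the totals do not show depth. Het libraries had 13863 to 14656 genes above 0, and WT libraries 15358 to 15569. The lowest value above 0 was 0.9 to 1.9 in Het libraries and 0.2 to 0.3 in WT libraries. CD8 T cell markers were high throughout, and Cd8a, a coreceptor chain, was between 45657.9 and 50265.2 in Het libraries and between 40591 and 46876.7 in WT libraries, and Cd8b1, its partner, averaged 49790 ± 5739 in Het libraries and 44680 ± 3446 in WT libraries. Brca1 averaged 153 ± 22.7 in Het libraries and 183 ± 29.3 in WT libraries (SD, n = 4 each) and did not pass the test (log2 difference -0.25, limma adjusted p = 0.742).

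No Ly6 gene passed the test between genotypes. By limma on log2(value + 1), adjusted over 12048 genes, 0 of the 6 had an adjusted p under 0.05, against 0.515% of all tested genes, none of which was above WT. Ly6a and Ly6c1, 2 of the 6, had an unadjusted p under 0.05, both with the higher mean in Het. The count was 1 without WT 65 and also without both Het 31 and 139, and 3 without Het 56, Het 139 or WT 54. Of all tested genes 8.19% did so, 3.79% with Het higher and 4.4% with Het lower. Both genotypes stood fully apart in 1 of the 6, Ly6c1, with Het higher. Of all tested genes 5% stood fully apart, 2.13% with Het higher and 2.86% with Het lower. The median log2 difference of all tested genes was 0.01, and their percentiles 5 and 95 were -0.64 and 0.74.

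Per kilobase of the first-numbered GENCODE M21 transcript, Ly6e was the highest of the 6 in both genotypes, at 13710 ± 1748 in Het libraries and 11540 ± 1925 in WT libraries. Ly6c2 followed at 4811 ± 3904 in Het libraries and 3834 ± 530 in WT libraries. Ly6a was at 2749 ± 1793 in Het libraries and 1315 ± 201 in WT libraries, below Ly6c2 in 8 of 8 libraries. Ly6d was at 1212 ± 730 in Het libraries and 1117 ± 349 in WT libraries, and its order with Ly6a was not fixed, since Ly6a was above it in only 6 of 8. Ly6k was at 327 ± 146 in Het libraries and 364 ± 151 in WT libraries, below Ly6d in 7 of 8 libraries. Ly6c1 was the lowest in 8 of 8 libraries, at 97.5 ± 30.0 in Het libraries and 45.9 ± 13.4 in WT libraries (SD, n = 4 each throughout).

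**Figure D1:**
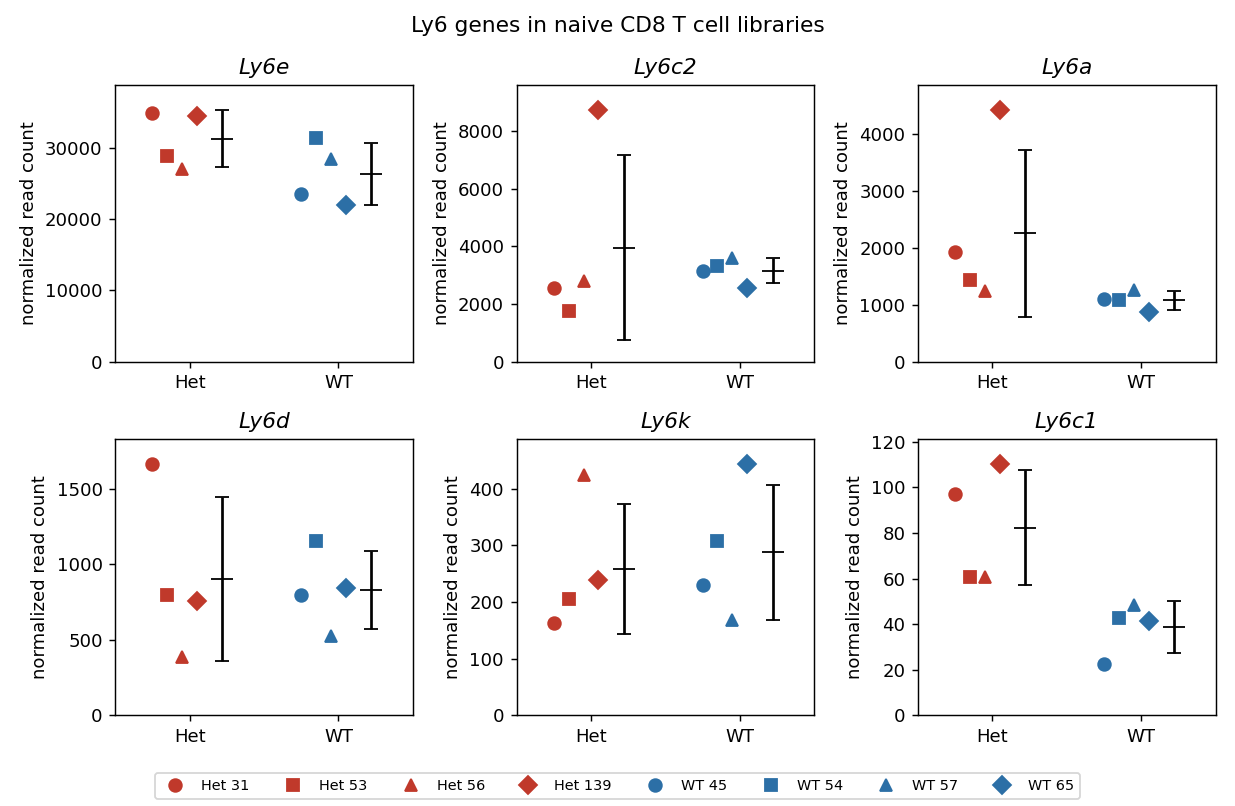
Normalized read count (linear axis from 0) of each Ly6 gene in 4 Het libraries (red, left) and 4 WT libraries (blue, right), with a marker for each library; the black bar to the right of each group is the mean ± SD. Het 139 is the highest library for Ly6c2, Ly6a and Ly6c1, and Het 31 the highest for Ly6d and Ly6e.

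Ly6a, the Sca-1 gene, was higher in 3 of the 4 Het libraries than in any WT library. Its normalized read count was 1920.2, 1440.2, 1234.1 and 4411.7 in Het 31, 53, 56 and 139, against 1101.2, 1075.7, 1266.1 and 864.7 in WT 45, 54, 57 and 65. Het 56 lay inside the WT range, and Het 139 was far above every other library. The mean was 2252 ± 1469 in Het libraries and 1077 ± 165 in WT libraries (SD, n = 4 each). That is 0.88 on the log2 scale, with an SE of 0.33 and a 95% interval from 0.16 to 1.61. The unadjusted limma p was 0.0216, the limma adjusted p 0.5003 and the exact 2-sided permutation p 0.0571. Without Het 139 the Het mean was 1532 ± 352 (n = 3) and the log2 difference 0.50 (limma adjusted p = 0.619).

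The genes whose values followed Ly6a most closely across the 8 libraries were Ifi27l2a, Ms4a6d and Usp18. Likeness was measured over 8961 genes as the root mean square difference between log2 values, each gene centred on its own mean. Ifi27l2a, an interferon-induced gene, differed from Ly6a by 0.154 on this log2 scale, where the spread of Ly6a itself was 0.683. Ifi27l2a was at 4109.4, 2860.5, 2411.2 and 8443.9 in Het 31, 53, 56 and 139, against 2225.5, 2236, 2832.2 and 2363 in WT 45, 54, 57 and 65. Like Ly6a, it had its highest value in Het 139 and its second highest in Het 31. Ms4a6d, a membrane protein gene of the Ms4a family, differed by 0.169. Usp18, which removes the ubiquitin-like ISG15 and damps interferon signalling, differed by 0.177 and was at 3330.2 in Het 139, against 744.9 to 1248.7 in the other 7 libraries.

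Ly6c2, the more abundant Ly-6C gene, did not differ in a set direction. It was at 2550.2, 1747.4, 2800.7 and 8720.9 in Het 31, 53, 56 and 139, against 3155.8, 3316, 3581.9 and 2553.5 in WT 45, 54, 57 and 65. Het 139 was the single highest library, and 2 Het libraries, 31 and 53, were below every WT library. The Het mean of 3955 ± 3209 thus spanned the WT mean of 3152 ± 436 (SD, n = 4 each). The log2 difference was 0.05, with a 95% interval from -0.82 to 0.91 and an SE of 0.39 (limma adjusted p = 0.976, exact permutation p = 0.971). Without Het 139 the Het mean was 2366 ± 550 (n = 3) and the log2 difference turned to -0.43 (limma adjusted p = 0.771). The spread within Het was 81.1% of the mean, against 13.8% within WT, and this difference in spread was not tested.

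Closest to Ly6c2 in pattern was Irf7, the transcription factor that amplifies type I interferon output, with a root mean square difference of 0.264 log2 units where the spread of Ly6c2 was 0.626. Irf7 was at 4385.4, 3568.5, 4596.9 and 10686 in Het 31, 53, 56 and 139, against 4223.7, 3947.2, 5644 and 3135 in WT 45, 54, 57 and 65. Scand1, and Bola3, a mitochondrial iron-sulphur cluster factor, followed at 0.268 and 0.275. In all 3 genes Het 139 was the highest library. Irf7, Usp18 and Ifi27l2a are members of the interferon response list below, and the search picked them out of all genes for their likeness.

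**Figure D2:**
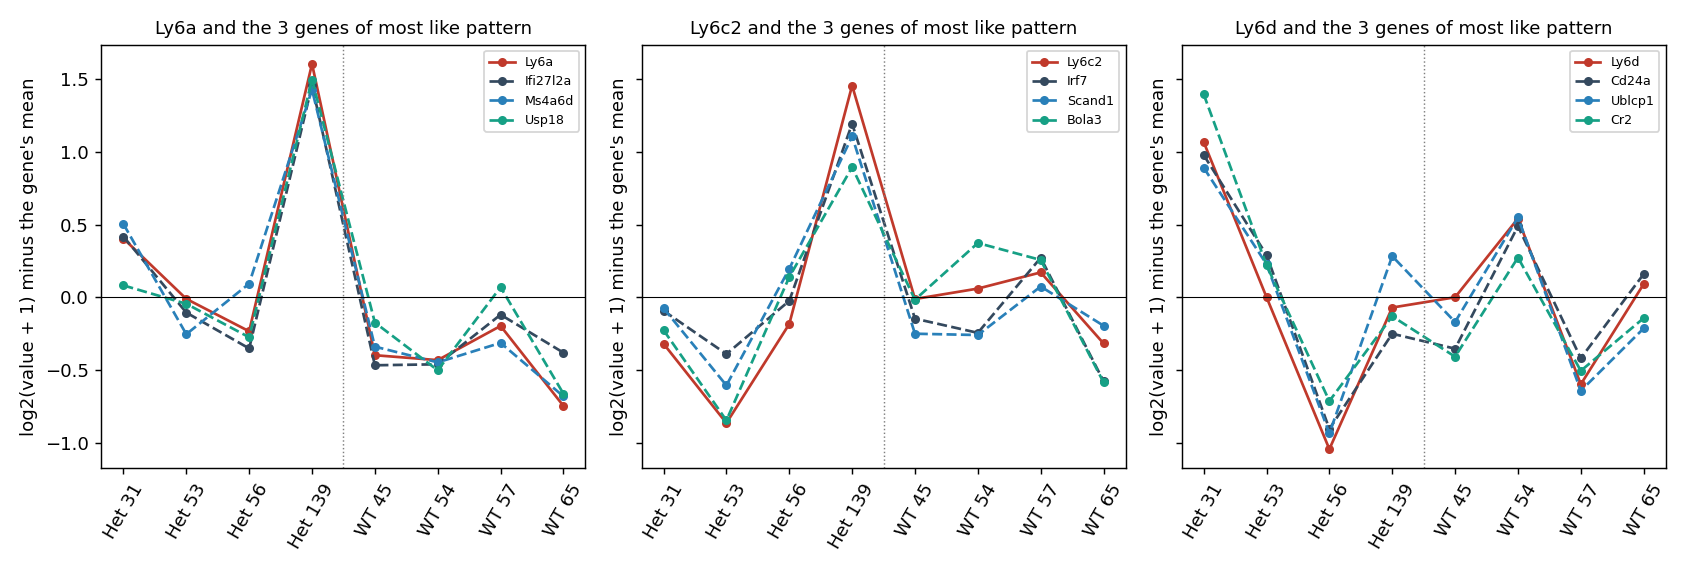
Log2(value + 1) of Ly6a, Ly6c2 and Ly6d (red, solid) and of the 3 genes most like each (dashed), each gene minus its own mean over the 8 libraries; lines only guide the eye, and the dotted line parts Het (left) from WT (right). Ly6a and Ly6c2 peak in Het 139 with Ifi27l2a, Usp18 and Irf7, and Ly6d peaks in Het 31 and is lowest in Het 56 with Cd24a and Cr2.

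Ly6c1 was the least abundant of the 6 and the sole member whose genotypes did not overlap. It was at 97.1, 60.9, 60.9 and 110.4 in Het 31, 53, 56 and 139, against 22.5, 42.5, 48.6 and 41.4 in WT 45, 54, 57 and 65. Every Het library was above every WT library, with Het 139 and 31 the highest. The mean was 82.3 ± 25.3 in Het libraries and 38.8 ± 11.3 in WT libraries (SD, n = 4 each). That is 1.07 on the log2 scale, with an SE of 0.34 and a 95% interval from 0.32 to 1.83. The unadjusted limma p was 0.00992, the limma adjusted p 0.377 and the exact permutation p 0.0286, which is the smallest that 4 against 4 libraries can give. The reads behind these values, estimated from the number of different values a library holds up to that of Ly6c1, were 118, 65, 46 and 94 in Het 31, 53, 56 and 139, against 36, 65, 62 and 57 in WT 45, 54, 57 and 65. These reads are not adjusted for depth, which differed between libraries, so they give the precision of each value and do not compare the genotypes. Low values were also not scaled alike. Het 53 and WT 45 each held 106 different values up to 100, but their lowest values above 0 were 1.0 and 0.2. Over all libraries that lowest value was 0.9 to 1.9 in Het and 0.2 to 0.3 in WT. What part this scaling has in the gap between the genotypes in Ly6c1 was not tested.

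Relative to Ly6c2, Ly6c1 was above its WT range in 3 of the 4 Het libraries. Ly6c1 was 3.81%, 3.49%, 2.17% and 1.27% of Ly6c2 in Het 31, 53, 56 and 139, against 0.713%, 1.28%, 1.36% and 1.62% in WT 45, 54, 57 and 65. Het 31, 53 and 56 were above every WT library, and Het 139 was within the WT range. The log2 ratio differed by 1.02 between the genotypes (exact permutation p = 0.114). Without Het 139, the library inside the WT range, it was 1.35, and no p is given because that choice of library fixes the order. Leaving out any other single library gave 0.79 to 1.17 (exact permutation p 0.114 to 0.2). The sum of both genes, which is less open to reads split between the copies, was 4037 ± 3228 in Het libraries and 3191 ± 438 in WT libraries (SD, n = 4 each, log2 difference 0.07, exact permutation p = 0.943). Without Het 139 the log2 difference of the sum turned to -0.40 (exact permutation p = 0.114).

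**Figure D3:**
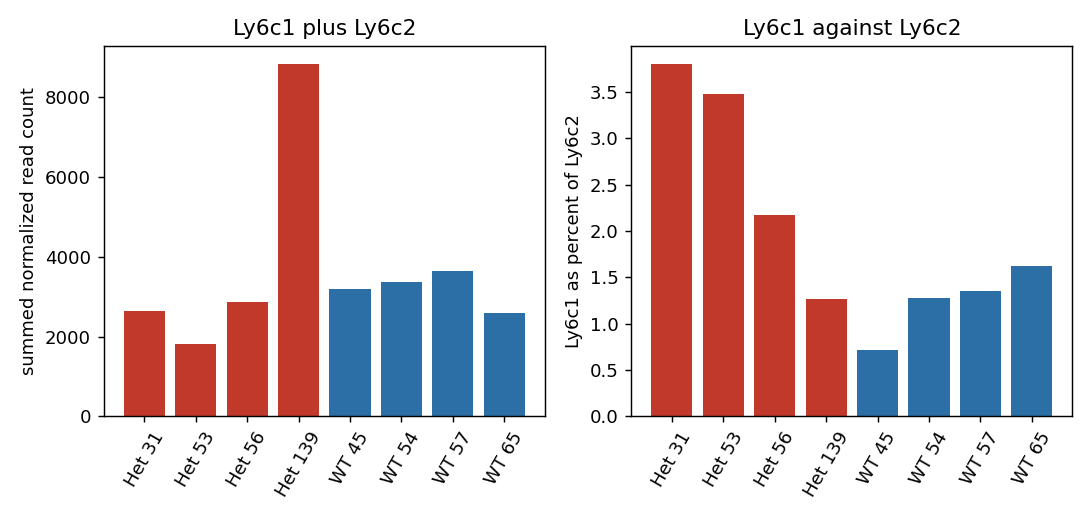
Left, the summed normalized read count of Ly6c1 and Ly6c2; right, Ly6c1 as a percentage of Ly6c2, in each Het (red) and WT (blue) library. Het 139 has the largest sum, 8831, and a share of 1.27%, while Het 31, 53 and 56 have shares of 2.17% to 3.81%.

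Ly6e was among the abundant transcripts of these cells, and its genotypes overlapped. It was at 34851, 28781.6, 26988.3 and 34485.2 in Het 31, 53, 56 and 139, against 23445.8, 31403.1, 28476.2 and 21948.2 in WT 45, 54, 57 and 65. Het 31 and 139 were above every WT library, while Het 53 and 56 lay among them. The mean was 31280 ± 3987 in Het libraries and 26320 ± 4392 in WT libraries (SD, n = 4 each). Het minus WT was 0.26 on the log2 scale, with a 95% interval from -0.06 to 0.57 and an SE of 0.14, which did not pass (limma adjusted p = 0.653, exact permutation p = 0.143). Its 3 most like genes were Samd10, Aldoa, a glycolytic enzyme, and Lamp1, a lysosomal membrane protein, at differences of 0.077 to 0.080 log2 units where the spread of Ly6e was 0.226.

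Ly6d, the B lineage and epithelial antigen, did not differ between the genotypes beyond the spread within them. It was at 1667.6, 795.8, 385.3 and 757.2 in Het 31, 53, 56 and 139, against 795.2, 1157.5, 525.1 and 846.9 in WT 45, 54, 57 and 65. The highest and the lowest of the 8 values were both Het libraries, 31 and 56. The mean was 902 ± 543 in Het libraries and 831 ± 259 in WT libraries (SD, n = 4 each). Het minus WT was -0.02 on the log2 scale (limma adjusted p = 0.989, exact permutation p = 0.943), and the 95% interval was wide, from -0.86 to 0.82 (SE 0.38).

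The genes most like Ly6d were Cd24a, a GPI-anchored antigen abundant on B cells, Ublcp1, a phosphatase of the proteasome, and Cr2, complement receptor 2 of B cells, at differences of 0.196, 0.207 and 0.267 log2 units where the spread of Ly6d was 0.601. Cr2 was at 1179.3, 522, 272.7 and 408.8 in Het 31, 53, 56 and 139, against 337.1, 541.1, 315.1 and 405.2 in WT 45, 54, 57 and 65. Both Cr2 and Ly6d had their highest value in Het 31 and their lowest in Het 56. Cr2 is also a member of the B cell list below, and the search picked it out of all genes for its likeness to Ly6d. Markers of B cells were present in all libraries: over 14 genes the summed value was 10090 to 58600 in Het libraries and 8934 to 24010 in WT libraries, with none of the 14 at 0 throughout. All 14 had the higher mean in Het (median log2 difference 0.53, 0 called), where 52.0% of all tested genes were higher. Without Het 31 the count was 11 of 14 and the median 0.10, and without Het 31 and 139 it was 8 of 14 and 0.06. Cd74, the most abundant, was at 12590 ± 9170 in Het libraries and 7466 ± 3158 in WT libraries. In bulk samples, fewer cells of a type and less RNA per cell cannot be told apart, and the part of B cells in the Ly6d values was not tested.

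Across the 8 libraries, log2 Ly6d went with the mean log2 level of the B cell list, with Pearson's r = 0.780 (exact permutation p = 0.0259) and Spearman's rho = 0.786 (exact permutation p = 0.0279). Without Het 31 and WT 45, the libraries farthest from the median of the list, r was 0.882, and with the genotype means removed it was 0.834. This was 1 of 30 relations, of each Ly6 gene with 5 lists, and none passed after Benjamini-Hochberg adjustment (0.248 for r and 0.279 for rho). Ly6d went with other lists to a like degree. With the monocyte and macrophage list r was 0.698 (exact permutation p = 0.0495, adjusted p = 0.248; rho = 0.524, exact permutation p = 0.197), 0.739 without the same 2 libraries and 0.787 with the genotype means removed. With the memory CD8 list r was 0.674 (exact permutation p = 0.0674, adjusted p = 0.253; rho = 0.667, exact permutation p = 0.0831) and 0.791 with the genotype means removed, but 0.030 without Het 31 and 56, so that relation rests on those libraries. With the epidermis list r was 0.067 (exact permutation p = 0.879). The summed value of that list was 1293 to 2614 in Het libraries, against 9991 and 7178 in WT 45 and 54 and 1352 to 1437 in WT 57 and 65. All 15 tested genes of the epidermis list had the lower mean in Het (median log2 difference -1.51, 0 called). Its most abundant gene, Sfn, differed little, at 1095 ± 208 in Het libraries and 1212 ± 77.4 in WT libraries. The keratin Krt14 was at 806.5 and 635.9 in WT 45 and 54, against 27.4 or less in every other library.

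Log2 Ly6a went with the interferon response list (r = 0.888, exact permutation p = 0.0169, adjusted p = 0.248; rho = 0.690, exact permutation p = 0.0694). Without Het 139 and WT 65, r was 0.182, so the relation rests on those libraries. The same held for Ly6c2 (r = 0.789, exact permutation p = 0.0570, adjusted p = 0.248; rho = 0.50, exact permutation p = 0.216), with r = -0.039 without them. With the genotype means removed but Het 139 and WT 65 kept, r was 0.870 for Ly6a and 0.872 for Ly6c2. The sign of Ly6d was the other way (r = -0.295, exact permutation p = 0.448; rho = -0.786, exact permutation p = 0.0279, adjusted p = 0.279). For Ly6e and the same list r was 0.482 (exact permutation p = 0.237) and rho 0.238 (exact permutation p = 0.582).

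**Figure D4:**
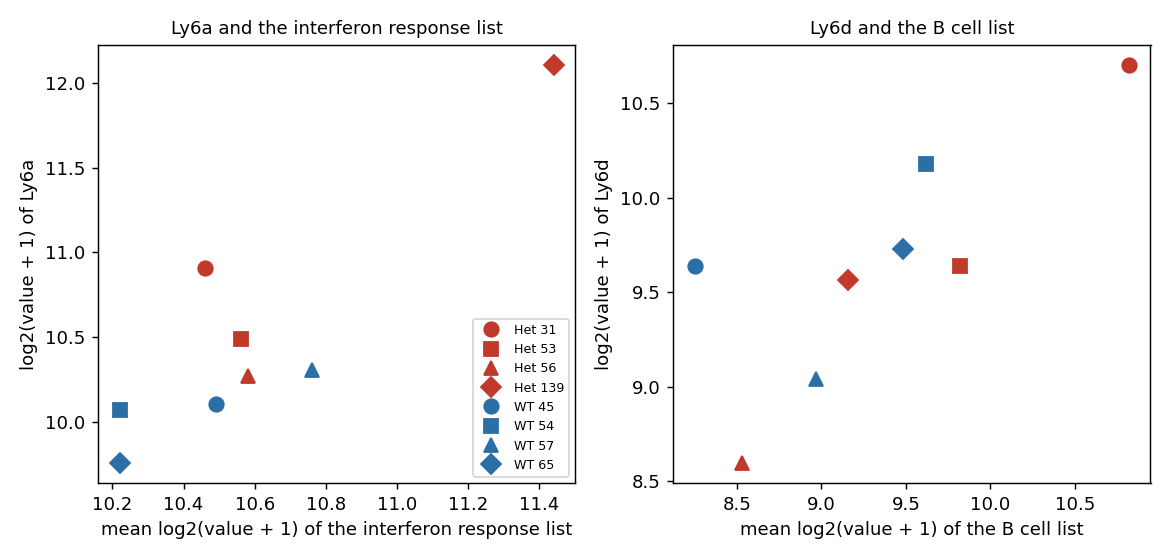
Left, log2(value + 1) of Ly6a against the mean log2 level of the interferon response list; right, that of Ly6d against the B cell list; each marker is a Het (red) or WT (blue) library. Het 139 stands alone at 11.44 on the interferon axis, whereas on the B cell axis Het 31 is highest, at 10.82, and WT 45 lowest, at 8.25, with libraries spread between them.

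Ly6k, known from male germ cells, was low and did not pass. It was at 163.9, 205.7, 424.9 and 239.2 in Het 31, 53, 56 and 139, against 230.9, 308.5, 167.8 and 444.3 in WT 45, 54, 57 and 65. Both genotypes covered nearly the same range, and Het 56 and WT 65 were the highest. The mean was 258 ± 115 in Het libraries and 288 ± 119 in WT libraries (SD, n = 4 each). Het minus WT was -0.16 on the log2 scale, with a 95% interval from -0.91 to 0.60 and an SE of 0.34 (limma adjusted p = 0.902, exact permutation p = 0.657). Ddx43, an RNA helicase known from testis, Cdca8, a chromosome passenger protein of mitosis, and Map2k6, a kinase that activates p38, were most like it, at 0.281 to 0.313 log2 units where the spread of Ly6k was 0.517. Ly6k was the only one of the 6 with its highest value in a WT library.

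**Figure D5:**
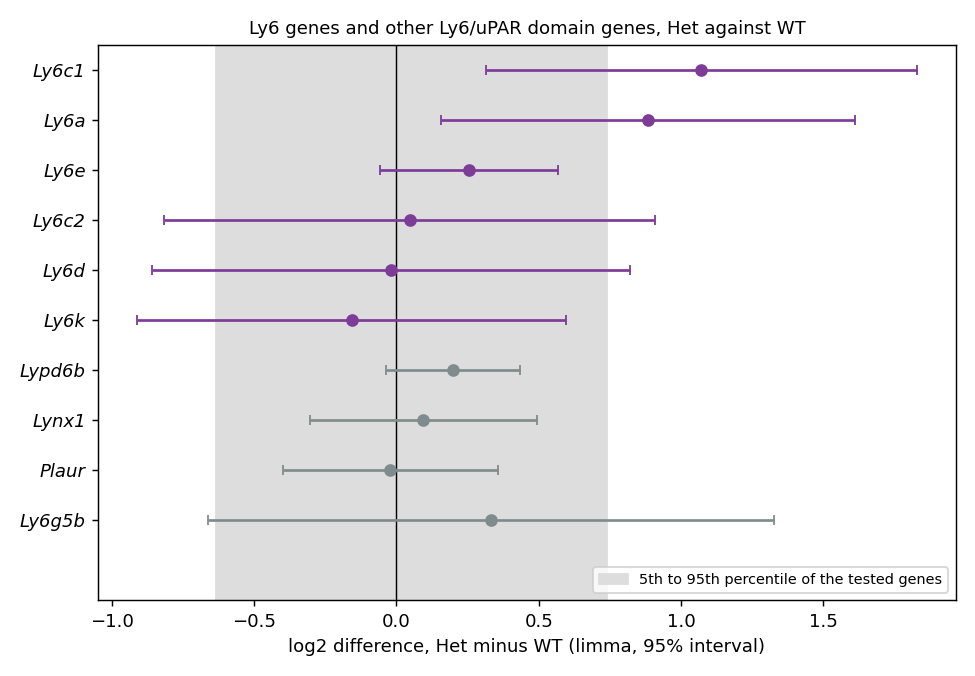
Log2 difference, Het minus WT, with its 95% interval (limma) for the 6 Ly6 genes (purple) and for 4 of the 6 other tested genes with the same domain (grey; Ly6g6c and Lypd3, with far wider intervals, are not drawn). The grey band runs from percentile 5 to percentile 95 of the 12048 tested genes; Ly6c1 and Ly6a lie beyond it, at 1.07 and 0.88.

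Other genes with a Ly6 or uPAR domain showed no call either. Of 34 symbols, 29 were found and 6 tested, with 3 higher and 3 lower in Het, 0 called and a median log2 difference of 0.04. Lypd6b was at 890 ± 62.8 in Het libraries and 776 ± 62.9 in WT libraries (log2 difference 0.20, limma adjusted p = 0.653). Plaur, the urokinase receptor, was at 495 ± 81.9 in Het libraries and 502 ± 91.6 in WT libraries (SD, n = 4 each). Lynx1, a modulator of acetylcholine receptors, was at 293 ± 59.2 in Het libraries and 270 ± 19.96 in WT libraries, and Ly6g5b at 67.7 ± 32.4 and 54.3 ± 24.0 in Het and WT libraries.

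Lypd3, known from skin keratinocytes, and Ly6g6c were seen chiefly in a pair of WT libraries. Lypd3 was at 2.4, 2.1, 9.9 and 2.9 in Het 31, 53, 56 and 139, against 81.1, 27.2, 1.1 and 0.7 in WT 45, 54, 57 and 65. Ly6g6c was at 6.8, 2.1, 6.5 and 0 in Het 31, 53, 56 and 139, against 75.9, 18.5, 0.3 and 1 in WT 45, 54, 57 and 65. The keratin Krt5 was at 51.8 or less in every Het library and in WT 57 and 65, against 1125.6 and 758.9 in WT 45 and 54. What part skin RNA has in these values was not tested. Neither gene passed (limma adjusted p = 0.810 for Lypd3 and 0.815 for Ly6g6c).

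The machinery that builds and attaches the GPI anchor held no call. Of 28 genes, 27 were tested, 18 higher and 9 lower in Het, with a median log2 difference of 0.07, where 52.0% of all tested genes were higher. Piga, of the enzyme that starts the anchor, was at 1333, 1528.2, 1655.1 and 1332.8 in Het 31, 53, 56 and 139, against 1049.8, 1058, 1142.5 and 1363.7 in WT 45, 54, 57 and 65 (log2 difference 0.34, limma adjusted p = 0.447). Pigx, which acts on the first mannose, was at 1412 ± 99.9 in Het libraries and 1176 ± 58.5 in WT libraries (log2 difference 0.26, limma adjusted p = 0.465), with every Het library above every WT library. Pigq was at 2709 ± 183 in Het libraries and 2407 ± 175 in WT libraries (SD, n = 4 each, limma adjusted p = 0.653).

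Other GPI-anchored proteins of lymphocytes did not pass either, with 8 of 12 tested genes higher in Het (median log2 difference 0.07). Bst2, or tetherin, an interferon-induced block to virus release, was at 2579 ± 557 in Het libraries and 2102 ± 189 in WT libraries, with Het 139 the highest at 3383.6. Cd48, an adhesion receptor, was at 5373 ± 1289 in Het libraries and 4294 ± 564 in WT libraries. Prnp, the prion protein gene, was at 74.3 ± 17.4 in Het libraries and 114 ± 39.4 in WT libraries (SD, n = 4 each). The limma adjusted p was 0.653 for Cd48 and Prnp and 0.652 for Bst2.

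Interferon response genes, the programme that Ly6a, Ly6c2 and Ly6e can belong to, had the higher mean in Het for 36 of the 39 that were tested. The median log2 difference was 0.28, and 0 were called. Without Het 139 the count was 31 of 39 and the median 0.12. Het 139 had a mean log2 level of 11.44 over the list, against 10.46 to 10.58 in the other Het libraries and 10.22 to 10.76 in WT libraries. Trim30a was at 5053 ± 553 in Het libraries and 4138 ± 399 in WT libraries (limma adjusted p = 0.489), Samd9l at 15620 ± 1063 and 13140 ± 1200 (limma adjusted p = 0.526), and Igtp, an interferon-induced GTPase, at 8128 ± 508 and 6808 ± 825 in Het and WT libraries (limma adjusted p = 0.542). Of the receptors and signalling genes, 11 of 15 were higher in Het (median 0.09, 0 called). Ifnar1 was at 5785 ± 508 in Het libraries and 4987 ± 334 in WT libraries, and Ifnar2 at 2766 ± 369 and 2394 ± 217 (SD, n = 4 each).

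Memory CD8 genes, which Ly-6C and Sca-1 accompany on antigen-experienced T cells, were higher in Het in 22 of 30 tested genes (median log2 difference 0.35, 0 called). Without Het 31 the count was 19 of 29 and the median 0.14, and without Het 31 and 139 it was 17 of 29 and 0.02. Klrg1, a receptor of effector cells, was at 167.6, 112.1, 21.7 and 151.3 in Het 31, 53, 56 and 139, against 15.7, 20.6, 36.1 and 65.1 in WT 45, 54, 57 and 65. Klrg1 was within the WT range in Het 56 and did not pass (limma adjusted p = 0.584). Il18rap, an interleukin 18 receptor chain, was at 273 ± 70.1 in Het libraries and 139 ± 51.5 in WT libraries, and Gzmb, granzyme B, at 432 ± 168 and 225 ± 78.9 (SD, n = 4 each, limma adjusted p = 0.250 and 0.528). Log2 Ly6c1 went with the memory list with r = 0.690 and rho = 0.527 (exact permutation p = 0.0578 and 0.185, adjusted p = 0.248 and 0.393), and Ly6c2 did not (r = -0.063, exact permutation p = 0.898). For Ly6a r was 0.477 and rho 0.524 (exact permutation p = 0.239 and 0.197, adjusted p = 0.421 and 0.393). With the genotype means removed, r was 0.552 for Ly6c1 and 0.227 for Ly6a. Without Het 31 and 56, r was 0.774 for Ly6c1 and 0.471 for Ly6a.

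Naive T cell genes were split, with 13 of 23 higher in Het (median log2 difference 0.02, 0 called). Foxo1, a factor that keeps T cells naive, was at 12200 ± 860 in Het libraries and 10960 ± 791 in WT libraries, Themis at 7290 ± 1087 and 6299 ± 1012, and Sox4 at 237 ± 43.1 and 299 ± 63.6 in Het and WT libraries (SD, n = 4 each).

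Other cells that use Ly6 genes left traces in both genotypes. Monocyte and macrophage markers summed to 8644 to 16360 in Het libraries and 8597 to 11140 in WT libraries, with 12 of 13 tested genes higher in Het (median log2 difference 0.50). Without Het 31 and 139 the count was 8 of 13 and the median 0.05. Ctss, a lysosomal protease and the most abundant of them, was at 8225 ± 2476 in Het libraries and 6826 ± 634 in WT libraries. Ccr2, which marks the monocytes that carry Ly-6C, was at 339.3, 210.1, 95.8 and 139.5 in Het 31, 53, 56 and 139, against 20.1, 77.7, 79.1 and 141.9 in WT 45, 54, 57 and 65. Log2 Ly6c1 went with this list with r = 0.730 and rho = 0.707 (exact permutation p = 0.0382 and 0.0578, adjusted p = 0.248 and 0.356), and r was 0.332 without Het 31 and WT 45, so the relation rests on those libraries. Log2 Ly6e went with it too (r = 0.755, exact permutation p = 0.0311, adjusted p = 0.248; rho = 0.857, exact permutation p = 0.0107, adjusted p = 0.279), with r = 0.534 without the same 2 libraries.

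Plasma cell markers summed to 5143 to 11310 in Het libraries and 3634 to 7153 in WT libraries, with Igj, the joining chain of antibodies, at 5953 ± 2382 in Het libraries and 3398 ± 1418 in WT libraries. In that list 4 of 6 tested genes were higher in Het (median log2 difference 0.36, 0 called). Plasmacytoid dendritic cell markers summed to 16970 to 18330 in Het libraries and 15450 to 17960 in WT libraries and are mostly Ccr9, which T cells also use, at 10410 ± 1971 in Het libraries and 10500 ± 1620 in WT libraries. The defining gene Siglech was at 6.5 to 30.1 in Het libraries and 5.8 to 17.1 in WT libraries. Among the tested plasmacytoid genes 5 of 7 were higher in Het (median log2 difference 0.28, 0 called). Neutrophil markers summed to 262 to 565 in Het libraries and 222 to 584 in WT libraries, with S100a9 at 83.7 ± 40.9 and 112 ± 63.3 in Het and WT libraries. S100a9 was lower in Het, while 6 of 9 tested neutrophil genes were higher (median log2 difference 0.09, 0 called). Of endothelial genes Pecam1, which T cells also carry, was at 6180 ± 692 in Het libraries and 5502 ± 131 in WT libraries, and Cdh5 was at 13.2 to 27.4 in Het libraries and 19.4 to 50.8 in WT libraries. Cdh5 was lower in Het, while 4 of 5 tested endothelial genes were higher (median log2 difference 0.20, 0 called). NK cell markers had the higher mean in Het for 7 of 8 genes (median log2 difference 0.86, 0 called), and without both Het 31 and 139 the count was 6 of 8 and the median 0.19. They summed to 10710 to 19530 in Het libraries and 9714 to 13480 in WT libraries. These sums are mostly Nkg7, at 9919 ± 1945 in Het libraries and 9064 ± 1220 in WT libraries. Klrb1c was at only 384 ± 239 in Het libraries and 173 ± 107 in WT libraries. Markers of CD4 and regulatory T cells summed to 2434 to 3559 in Het libraries and 2207 to 3512 in WT libraries, with Ctla4 at 715 ± 251 and 718 ± 260 in Het and WT libraries. Here 6 of 8 tested genes were higher in Het (median log2 difference 0.22, 0 called). Of all tested genes 52.0% were higher in Het. Markers of nerve and connective tissue had the lower mean in Het for 12 of 12 genes, and 6 were called. Of all tested genes 0.515% were called, all of them lower in Het. Mtap1b, the most abundant, was at 2.4, 7.8, 76.1 and 7.9 in Het 31, 53, 56 and 139, against 396.3, 1719.7, 1571.6 and 1827.9 in WT 45, 54, 57 and 65. The part of these cells in the Ly6 values was not tested.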

How the data were processed

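Per the file headers, the deposited table holds 1 column per library. Its values are a signal, normalized read counts made by the authors, linear and rounded to 1 decimal. Per the submitters' processing notes the build was mm9, and the tools include HTSeq, TopHat2, CASAVA and DESeq, with no role stated, and no normalization step is given there. The values at each rank (9513 ranks, mean from 100 up) differed from the 8-library mean by no more than 2% in 100% of ranks, as quantile normalization gives. No count model was therefore used.

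Genes with a mean of at least 10 were tested with limma 3.58.1 in R 4.3.3 (trend, log2(value + 1), 2-sided, Benjamini-Hochberg over 12048 genes, threshold 0.05). Fold changes on that scale are understated for low genes. Single values were tested by exact 2-sided permutation over 70 assignments, with a smallest p of 0.0286. Relations used exact permutation of libraries, with Python 3.11.15, scipy 1.17.1 and Biopython 1.88. Sequences are from RefSeq (GRCm38.p6) and GENCODE M21. Of the 6 Ly6 genes, Ly6c1 and Ly6c2 matched the promoter table. Reads at low values were estimated from the number of different values, 74 to 121 up to a value of 100 in Het libraries and 106 to 128 in WT libraries. The fit was tested on simulated data.

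The Ly6 genes and lists were chosen with earlier results of these data known. Named are the 6 genes, the tested domain relatives, up to 3 genes of smallest p per pathway list, the most abundant marker of each cell type with up to 3 more, the 3 genes of most like pattern (mean of at least 100, without gene models or receptor segments), and Brca1 and Cd8a. The untested neighbours on chromosome 15 were named after their values were seen, and the relations with lists and the fit without Het 31 and 139 were added after seeing the data. Other settings tried were pseudocounts of 0.5 and 5, keeping genes with any value above 0, keeping those averaging 50 or more, TMM factors, no trend, array weights, a robust fit, and each library left out. Some genes that this naming rule picks are not reported here.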

Additional observations from a re-analysis of the deposited data

Results flagged for a closer look

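Groups are listed here in which 1 library lay apart from the remaining 3 by a gap that took up nearly the whole range of the values. Chance gives this in about 1 of 20 groups, and 10 of 124 groups (8.06%) showed it. Of the 10, 3 concern Het 139. Ly6c2 was at 8720.9 in Het 139, where the other Het libraries were at 1747.4 to 2800.7. The sum of Ly6c1 and Ly6c2 was 8831.3 in Het 139, and 1808.3 to 2861.6 in the others. The mean log2 level of the interferon response list was 11.44 in Het 139, and 10.46 to 10.58 in the others. Het 56 was above the other Het libraries for Lypd3 (9.9, others 2.1 to 2.9), Krt5 (51.8, others 8.7 to 13.4) and the neuronal gene Mtap1b (76.1, others 2.4 to 7.9). Igtp was low in Het 53, at 7371.8 where the others were at 8322.8 to 8462.3. In WT 54, Lyz2, the lysozyme gene of macrophages, was at 1133.4 (others 578.2 to 664.3) and Siglech at 17.1 (others 5.8 to 6.8). Ifnar1 was at 5484.8 in WT 65 (others 4779.6 to 4859.7).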

How the results depend on the processing

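No Ly6 gene was called under any of the 17 alternatives to the reported fit. The log2 difference kept its direction in 17 of 17 for Ly6a (0.32 to 1.11, limma adjusted p 0.184 to 0.964), Ly6c1 (0.69 to 1.20, 0.197 to 0.964) and Ly6e (0.10 to 0.35, 0.307 to 0.9997), in 13 for Ly6c2 and Ly6d, and in 14 for Ly6k. Leaving out 1 library gave -0.43 to 0.34 for Ly6c2, -0.38 to 0.32 for Ly6d, -0.43 to 0.081 for Ly6k, -0.40 to 0.36 for the sum of Ly6c1 and Ly6c2, 0.79 to 1.35 for their log2 ratio, and 11 to 91 genes called, against 62. Ly6c2 and the sum were below 0 without Het 139 or WT 65, and Ly6d above 0 without Het 56, WT 54 or WT 65. Ly6k was above 0 without Het 31 (0.03) or WT 65. With array weights Ly6c2 was at -0.080 and Ly6d at 0.23. Without both Het 31 and 139, Ly6c2 was at -0.50, Ly6k at 0.13, the sum at -0.48, and 3 genes were called. With any value above 0 kept 123 genes were called, and with a mean of at least 50, which leaves out most genes of low level, 14. The cause of the other changes was not tested. No paired analysis was possible because the genotypes share no replicate number. At low values depth limits Ly6c1, which rests on 36 to 118 estimated reads.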
